A study of Caenorhabditis elegans with 45 samples.

Results

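The nematode-specific peptide genes of families a to e were followed in whole adult *Caenorhabditis elegans* of a pair of sterile strains. Every gene whose name begins with *nspa-*, *nspb-*, *nspc-*, *nspd-* or *nspe-* was taken, which gave 56 of the 25985 genes measured: 9 *nspa*, 12 *nspb*, 18 *nspc*, 9 *nspd* and 8 *nspe* genes. The genes were taken by name alone, but the families were chosen with earlier results of these data known. FEM worms carried *fem-3(q20)*, a temperature-sensitive allele with which the germ line makes an excess of sperm and no oocytes, beside a normal somatic gonad. GEM worms carried *gon-2(q388); gem-1(bc364)*, with which gonad formation fails or is delayed and degenerate. Both strains were grown from arrested first-stage larvae at the restrictive temperature on HT115 *Escherichia coli* with the empty vector L4440. Each sample was the RNA of a large pool of worms, and the 9 ages were 41, 49, 65, 73, 89, 97, 117, 137 and 257 h after feeding. The first pair of ages counts as day 1 of adult life, the next pairs as days 2 and 3, and the last 3 ages as days 4, 5 and 10; 41 h lies near the end of the molt to the adult. Of the 45 libraries, 23 were FEM and 22 GEM, with 2 or 3 for each strain and age.

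The models have limits that bear on the values below. Gonad failure in GEM was not complete: visibly fertile worms were picked off before harvest, but by day 4 a degenerate gonad could be seen in some of the worms kept. The paper states that such gonads may by then hold sperm and oocytes, and in few cases embryos. In whole worms, fewer cells of a type and less RNA per cell cannot be told apart. Nothing in the labels says that the libraries of a group came from separate cultures, so the p-values measure the spread between these libraries.

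The *nsp* names group short peptides that were found by their likeness to each other and have no known relatives outside nematodes; what most of them do is not known. Peptides of the *nspd* family are known as products of sperm. In *C. elegans* the spermatocytes make the sperm's transcripts, and transcription has stopped by the time spermatids form. The X chromosome is known to hold few genes that are expressed in the male germ line.

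The families are laid out in different ways in the WBcel235 genome, the build to which the reads were mapped. The 9 *nspa* genes all lie on chromosome V as single exons of 105 bases, and 7 of them sit between positions 14878348 and 14891186. The 18 *nspc* genes all lie on the X chromosome in 3 clusters, of 7 genes at 8534672 to 8542283, 6 genes at 12342946 to 12361159 and 5 genes at 14523575 to 14530207. The 8 *nspe* genes form 1 cluster on chromosome II at 12612518 to 12629384. In contrast, the 12 *nspb* genes lie in 5 places on chromosomes II, III and IV, and the 9 *nspd* genes, single exons of 213 to 222 bases, in 7 places on chromosomes I, II, III and IV. The *nspa* and *nspd* lengths are multiples of 3 in every case, as are 6 of the 12 *nspb*, 9 of the 18 *nspc* and 5 of the 8 *nspe* exonic lengths. How much of each length is coding was not tested.

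Near-identical copies limit what can be said of single genes. The annotation gives 1 name to both members of 4 pairs: *nspa-3* and *nspa-1*, *nspa-5* and *nspa-4*, *nspa-7* and *nspa-6*, and *nspc-2* and *nspc-6*. The first 3 pairs have starts that are 6368 bases apart. In FEM the mean normalized count was 219 for *nspa-3* against 5.95 for *nspa-1*, 926 for *nspa-5* against 199 for *nspa-4*, and 620 for *nspa-7* against 19.9 for *nspa-6*. How reads were shared within such pairs is not given in the sources used here, so the split within a pair is uncertain. The counts were made without strand, and *nspc-15* shares 333 exonic bases with *F19H6.6*, so its reads are uncertain as well.

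Levels are given as log2(normalized count + 1), so a difference of 1 is a doubling except near 0. The libraries held an estimated 12839734 to 43350627 reads assigned to genes (median 21388362), and 1 read was worth 0.412 to 1.915 normalized counts. Sperm genes marked the strains: the summed level of 11 sperm genes was 13.09 to 16.15 in FEM (median 15.6) and 6.56 to 10.99 in GEM (median 9.47), with none of the 11 at 0 throughout GEM. For 31 major sperm protein genes the sums were 14.26 to 18.32 in FEM and 6.45 to 11.98 in GEM, and 1 of them, *msp-32*, was at 0 in every GEM library. Genes of the oocyte were measured in both strains, at 11.58 to 13.23 in FEM and 6.69 to 17.4 in GEM (11 genes), where the GEM mean was 7.61 at 41 h, 16.34 at 89 h and 17.31 at 257 h. For 7 genes of the somatic gonad the GEM mean sum was 12.78 at 41 h, 13.93 at 89 h and 14.36 at 257 h. The FEM means were 13.88, 14.08 and 14.25. At 257 h the mean of their single levels was 8.59 in GEM and 9.5 in FEM. For 8 early embryo genes the mean sums at 41 and 257 h were 0.45 and 7.61 in GEM and 3.4 and 4.97 in FEM. Transcripts of all these lists were thus measured in both strains.

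In FEM the *nspd* genes were by far the most abundant of the families for their annotated exonic length. The coding part of that length may differ between families, which was not tested. The median over members of the mean normalized count per kb was 25398 for *nspd*, 1899 for *nspa*, 484 for *nspc*, 66.1 for *nspb* and 9.1 for *nspe*. In GEM the same medians were 256 for *nspd*, 36.0 for *nspb*, 18.6 for *nspc*, 8.8 for *nspe* and 7.9 for *nspa*. The plot of family sums shows the courses: the *nspd*, *nspa* and *nspc* sums were higher in FEM than in GEM at every age, for *nspc* at 257 h with 11.02 and 10.85 against 10.2 and 7.46, and *nspb* fell from day 1 in both strains. The *nspe* sums of the strains overlapped at each age from 49 to 137 h. Every FEM library was above every GEM library at 41 h (5.6 to 7.5 against 4.79 to 5.34) and at 257 h (7.86 and 8.43 against 6.97 and 5.64).

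**Figure D1:**
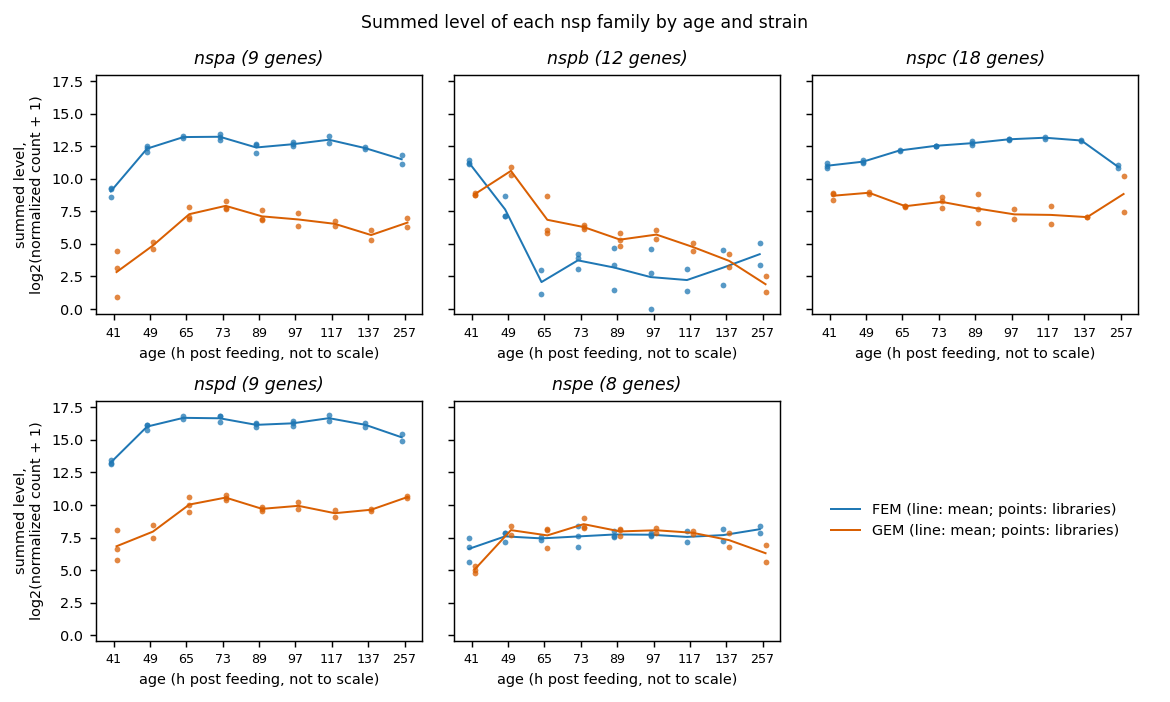
Summed level of each family, log2(summed normalized count + 1), by age in hours (spaced evenly, not to scale), with a point for each library and a line through the means of FEM (blue) and GEM (orange). The 23 FEM libraries lay between 13.14 and 16.89 for *nspd* and the 22 GEM libraries between 5.78 and 10.79, while for *nspe* the ranges were 5.6 to 8.43 and 4.79 to 9.0.

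Which members differ between FEM and GEM was asked with all 9 ages together and then age by age. Genes were tested when their mean deposited value, the natural log of normalized count + 1, was at least 1, which 42 of the 56 members met: 6 *nspa*, 7 *nspb*, 17 *nspc*, 9 *nspd* and 3 *nspe*. Over the 9 ages 34 of the 42 differed (limma, adjusted p under 0.05 over 16925 genes), where 69.6% of all genes tested did. Of the 34, 32 were higher in FEM (31.1% of all genes) and 2 lower (38.6%). The 32 were all 9 *nspd*, the 17 *nspc* and the 6 *nspa* genes tested, with median differences of 6.75, 4.29 and 6.09. The filter averaged all 45 libraries, and some members passed it only through FEM. Among these, *nspa-6*, *nspc-12*, *nspc-6*, *nspa-7*, *nspc-5* and *nspc-15* were at 0 in 22, 20, 19, 18, 14 and 13 of the 22 GEM libraries. For such genes a higher level in FEM was close to fixed by the filter, here and age by age. Both lower genes were *nspb*, and no *nspe* gene was called. The median of all genes was −0.08, and it was −0.45 after quantile normalization and −0.69 with each library centred on its median. With these scalings the share of higher calls among all calls fell from 44.6% to 25.7% and 18.4%, the *nspd*, *nspc* and *nspa* counts stayed at 9, 17 and 6, the *nspb* count became 4 and 6, and the *nspe* count 2 in both. The 2 *nspe* genes were lower in FEM, the direction in which all genes moved with these scalings.

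Without a threshold on a test, the libraries were also compared one by one. Every FEM library exceeded every GEM library of its age, at all 9 ages, for 22 of the 56 members, against 7.62% of the 24346 genes above 0 in some library. These were the 9 *nspd* genes, 8 of the 18 *nspc*, 5 of the 9 *nspa* and none of the *nspb* or *nspe* genes.

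The number of the 42 tested members that were higher in FEM stayed near 30 from 41 to 137 h and then dropped. From the first age to the last it was 35, 30, 31, 32, 31, 31, 30, 32 and 25, where the shares of all genes tested were 39.2%, 43.2%, 38.3%, 28.0%, 18.8%, 18.6%, 18.1%, 18.8% and 21.3%. Lower in FEM were 0, 6, 6, 1, 1, 1, 1, 1 and 0 members, each of them an *nspb* gene, where the shares of all genes from 49 to 137 h were 14.4%, 10.3%, 10.1%, 25.4%, 16.3%, 28.0% and 36.3%. In both directions together 52.4%, 57.7%, 48.6%, 38.1%, 44.3%, 35.0%, 46.1%, 55.1% and 61.7% of all genes were called. The single lower call at 137 h was lost without FEM replicate 1 or GEM replicate 1 of that age. For all genes the median difference lay between −0.34 and 0.37 over the ages as deposited, and between −0.22 and −0.71 in the other scalings.

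**Figure D2:**
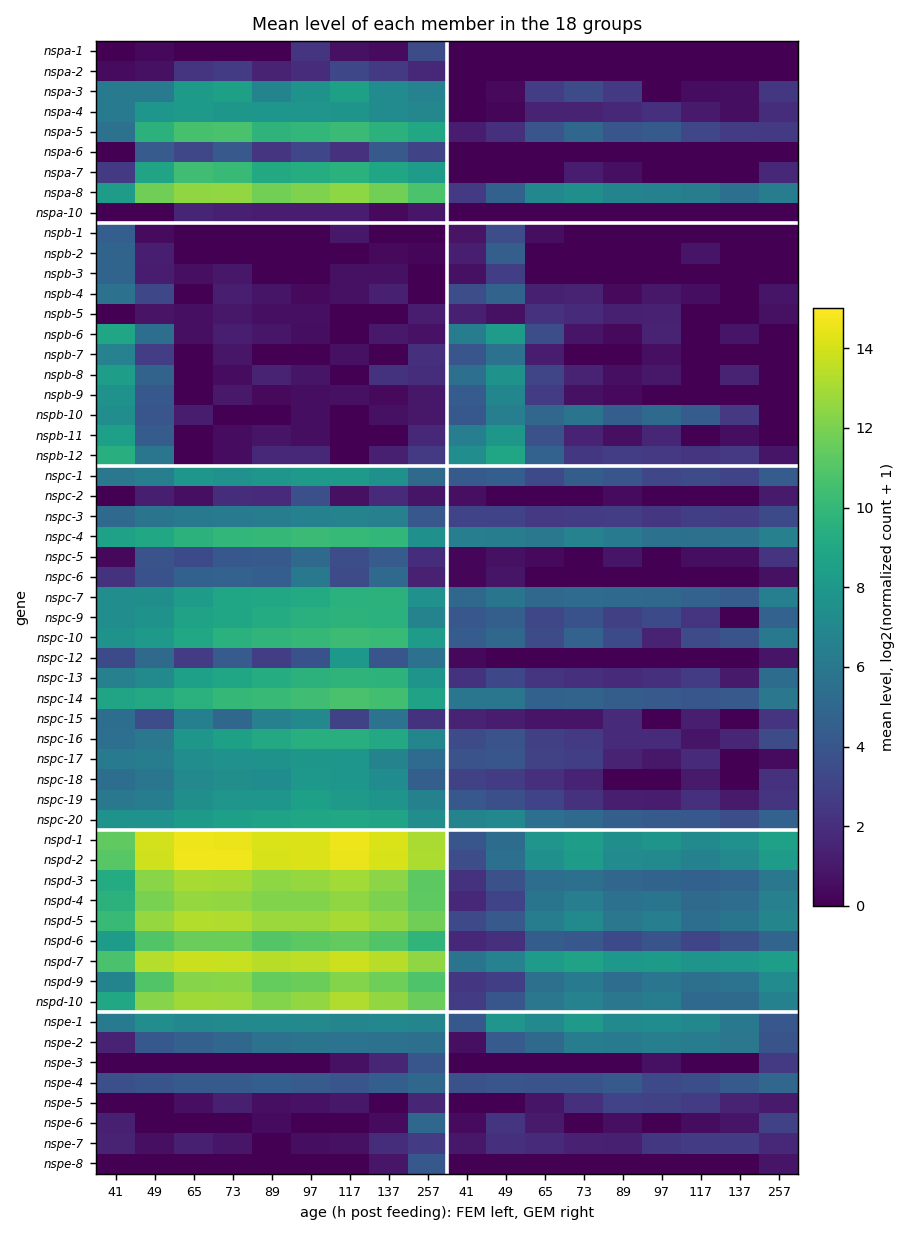
Mean level of each of the 56 members, log2(normalized count + 1) as colour, in the 18 groups of strain and age (columns, FEM left and GEM right), with white lines between families. The *nspd* block is brightest in FEM, the *nspb* block is brightest at 41 h in FEM and at 49 h in GEM, where *nspb-10* stays visible to 117 h, and the *nspc* block dims in FEM at 257 h.

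The *nspd* genes, whose peptides belong to sperm, were the family in which every member was higher in FEM at each of the 9 ages by the test. *nspd-1* on chromosome I (6097579 to 6097791), the member with the highest level, ranged in FEM from 11.21 over a median of 14.17 to 14.87 and in GEM from 3.02 over 7.52 to 8.69. The strains did not overlap, and the difference over the 9 ages was 6.73 (SE 0.14, limma adjusted p 7.81e-30). *nspd-2* on chromosome IV (9844060 to 9844272) was much alike, at 10.96, 14.17 and 14.85 in FEM and 0.84, 7.13 and 8.66 in GEM (lowest, median and highest; difference 7.03, SE 0.23, adjusted p 3.07e-24). For *nspd-7*, also on IV (10268975 to 10269187), GEM kept the highest median level of any member of the family, with 10.62, 13.47 and 14.15 in FEM against 5.05, 8.03 and 8.79. Its difference of 5.4 (SE 0.08, adjusted p 1.24e-32) was the smallest of the 9, and the largest was 7.44. Even *nspd-6*, the lowest member, held 7.92, 11.05 and 11.96 in FEM and 0.92, 3.52 and 5.47 in GEM. The counts of the family were spread over many members in FEM, where *nspd-1* took 24.19%, *nspd-2* 24.02% and *nspd-7* 14.39%.

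The *nspd* genes rose together between 41 and 49 h. In FEM, *nspd-1* stood at 11.24, 11.50 and 11.21 in the 3 libraries at 41 h and at 14.11, 14.07 and 13.82 at 49 h. All 9 members were above every 41 h library at 49 h (27.9% of genes above 0), and all 9 rose in the test, with a median of 2.75. Over the families 23 of 42 members tested changed (35.8% of all genes), 16 of them upward (23.2%). For all genes the median was 0.16. In GEM, *nspd-1* was at 3.55, 5.50 and 3.02 at 41 h and at 4.53 and 6.04 at 49 h, groups that overlapped. Over the families 8 of 42 members tested rose in GEM and none fell (20.0% of all genes changed, 11.9% rose), or 5 without GEM replicate 3 at 41 h or replicate 2 at 49 h. With only the GEM groups at 41 and 49 h in the fit a single member was called, *nspb-6*, and all 8 of these calls were lost. Of the 9 *nspd* genes 4 rose, with a median of 1.27, but the count was 2 without GEM replicate 1 at 41 h, 7 without replicate 2, 1 without replicate 3 and 1 without replicate 2 at 49 h. The rise was larger in FEM for 5 of the 9 by a test of the difference itself (15 of 42 members tested, against 18.4% of all genes, and 7 toward FEM, against 11%), a comparison added after the values were seen, and for 8 without GEM replicate 3 at 41 h and 3 without GEM replicate 1 at 49 h. The sperm genes moved with the family, from 13.28 to 15.39 in FEM and from 7.05 to 8.10 in GEM as mean summed level, and their part in the result was not tested.

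Late in life the strains drew closer. The summed *nspd* level in FEM was 16.69 ± 0.15 at 65 h (SD, n = 2), 16.16 ± 0.22 at 137 h (n = 2) and 15.2 ± 0.39 at 257 h (n = 2). At 257 h all 9 members were higher in FEM replicate 1 than in replicate 2, which held 43350627 and 20217270 reads. In GEM it was 10.58 ± 0.19 at 73 h (n = 3), 9.64 ± 0.12 at 137 h (n = 2) and 10.62 ± 0.11 at 257 h (n = 2). From 137 to 257 h, then, all 9 members were lower in every FEM library (21.7% of genes above 0) and higher in every GEM library (25.3%). The test called few of these steps, at 9 of 42 members tested in FEM (17.0% of all genes) and 5 in GEM (8.14%): *nspd-3* (−1.14, SE 0.33, adjusted p 0.0135) and *nspd-7* (−0.89, SE 0.27, adjusted p 0.0194) fell in FEM, neither of them without FEM replicate 1 at 137 h or replicate 2 at 257 h, and *nspd-3* alone rose in GEM (1.1, SE 0.33, adjusted p 0.033), though not without either GEM library at 137 h, without GEM replicate 2 at 257 h or with only the groups compared (adjusted p 0.228). For the same 2 genes the changes differed between the strains.

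Against day 1, taken as the mean of 41 and 49 h, all 9 *nspd* genes rose in GEM by day 10 with a median of 3.28 (26 of 42 members tested changed, against 76.8% of all genes, 16 upward, against 55.1%). The median of all genes was 1.03 in that comparison, so the family stood 2.25 above it. In FEM the day 1 mean spans the early rise: the summed level was 13.26 at 41 h, 16.02 at 49 h and 15.2 at 257 h. Day 10 thus lay above 41 h and below 49 h. Against the day 1 mean 1 of the 9 rose in FEM, and 5 after quantile normalization, with a median of 0.48 (13 of 42 members tested changed, against 51.1% of all genes, 5 upward, against 28.9%). The change was lower in FEM than in GEM for all 9, median −2.69 (15 of 42 members tested, against 62.4% of all genes, 12 toward GEM, against 47.9%, and 3 toward FEM, against 14.5%), where the median of all genes was −0.84, −0.22 with centred libraries and 0.08 after quantile normalization. With quantile normalization 7 of the 9 were called. At 41, 49 and 257 h the mean summed level of the sperm genes was 7.05, 8.1 and 10.97 in GEM and 13.28, 15.39 and 15.13 in FEM. What they contribute was not tested.

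The *nspa* genes were, like *nspd*, higher in FEM, and a single member carried most of the family. *nspa-8*, which lies apart from the others (14826948 to 14827052), took 65.67% of the family's counts in FEM. Its level was 8.02, 12.02 and 12.80 in FEM and 0.92, 6.45 and 7.57 in GEM (lowest, median and highest). The groups were separate at each age, with a difference of 5.65 (SE 0.17, limma adjusted p 1.81e-25). *nspa-5* held 5.09, 9.75 and 10.88 in FEM and 0, 3.53 and 5.81 in GEM (difference 6.26, SE 0.19, adjusted p 1.51e-25). *nspa-7* was at 1.37, 8.97 and 10.60 in FEM, while 18 of the 22 GEM libraries held no read of it and the highest stood at 3.59. For *nspa-6*, every GEM library was at 0 and so were 7 of the 23 FEM libraries, whose highest level was 6.41. Besides *nspa-6*, the members *nspa-1*, *nspa-2* and *nspa-10* were at 0 in all 22 GEM libraries, but they stayed at or below 6.84, 3.56 and 2.64 in FEM and were under the filter. Tested with no filter, the 9 were all higher in FEM over the 9 ages (23.9% of all genes).

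From 41 to 49 h the *nspa* genes rose in FEM as well. *nspa-8* went from 8.35, 8.37 and 8.02 to 11.77, 11.96 and 11.57, and *nspa-7* from 1.43, 4.76 and 1.37 to 8.80, 8.83 and 8.66. In both cases each library at 49 h lay above each at 41 h, with changes of 3.52 (SE 0.45, adjusted p 2.5e-07) and 6.24 (SE 0.66, adjusted p 8.96e-09). Of the 6 tested, 5 rose, with a median of 3.76, or 2.89 where a gene at 0 in 1 group was put at its bound, and the median over all 9 members with no filter was 1.64. In GEM *nspa-8* rose and did not overlap, from 0.92, 4.37 and 2.29 to 4.93 and 4.41 (2.14, SE 0.50, adjusted p 0.00247), but not without GEM replicate 1 at 49 h or with only the groups compared (adjusted p 0.361), and no other *nspa* gene was called. The FEM change exceeded the GEM change for *nspa-5* (3.07, SE 0.75, adjusted p 0.00363) and for *nspa-7*, which was at 0 in GEM at both ages. For *nspa-8* the difference was 1.38 (SE 0.68, adjusted p 0.155).

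With age the *nspa* sum in FEM passed a broad top, 13.22 ± 0.23 at 73 h (SD, n = 3), and was 11.5 ± 0.47 at 257 h (n = 2). GEM had its top at the same age, 7.92 ± 0.33 (n = 3), and held 6.63 ± 0.48 at 257 h (n = 2). None of the 6 genes tested was called from 137 to 257 h in either strain (limma), and before adjustment 0 in FEM and 2 in GEM had a p under 0.05. The FEM means of *nspa-8* were 8.25 at 41 h, 11.77 at 49 h and 10.76 at 257 h. Against day 1, again the mean of 41 and 49 h, *nspa-8* rose in GEM at day 10 (2.67, SE 0.47, adjusted p 4.35e-06), while in FEM it was 0.76 (SE 0.45, adjusted p 0.162). The difference between those changes was −1.92 (SE 0.65, adjusted p 0.0108), against −0.84 for all genes. It lost its call without FEM replicate 2 at 257 h (−1.44) or GEM replicate 1 at 257 h (−1.72), and in both other scalings.

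The *nspc* genes, all on the X chromosome, were the largest family and had a course of their own in FEM. *nspc-4* (8537956 to 8538362) held 7.40, 9.81 and 10.27 in FEM and 5.01, 6.19 and 7.83 in GEM (lowest, median and highest). The difference over the 9 ages was 3.32 (SE 0.14, limma adjusted p 7.88e-21). *nspc-14* (12358614 to 12359057) was at 8.63, 9.95 and 10.83 in FEM and 2.99, 4.76 and 7.47 in GEM, which did not overlap (4.86, SE 0.21, adjusted p 1.26e-20). For *nspc-7* (8541862 to 8542283) the values were 6.55, 8.61 and 9.84 against 3.64, 5.11 and 7.85 (3.33, SE 0.21, adjusted p 5.21e-16). The lowest gene tested, *nspc-5*, held 0, 3.64 and 5.41 in FEM and 0, 0 and 4.65 in GEM, and its difference of 2.8 (SE 0.30, adjusted p 4.68e-10) was the smallest of the 17. This gene was at 0 in 14 of the 22 GEM libraries and passed the filter only through FEM. A higher FEM level was thus close to fixed, and the p is no separate support. No member dominated: *nspc-14* took 17.55% of the family's counts in FEM and *nspc-4* 14.78%.

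Unlike *nspd* and *nspa*, the *nspc* genes did not jump at 49 h. The summed level in FEM was 11 ± 0.19 at 41 h and 11.32 ± 0.09 at 49 h (SD, n = 3 each), and then 12.17 ± 0.1 at 65 h and 13.15 ± 0.11 at 117 h (n = 2 each). *nspc-5* alone of the 17 tested rose from 41 to 49 h in FEM (3.52, SE 0.80, adjusted p 0.00066), and none was called in GEM (limma), where 0 had a p under 0.05 before adjustment as well. Of the 18 members, 17 had their highest FEM mean at 97 or 117 h. In GEM the sum ran the other way over these ages, from 8.93 ± 0.11 at 49 h to 7.05 ± 0.03 at 137 h (n = 2 each). In this way the distance between the strains grew from a median of 2.28 at 41 h over the 17 tested to 6.15 at 97 h and 5.71 at 137 h. With genes at 0 in 1 group put at their bound, the medians at 97 and 137 h were 4.90 and 5.11. At 41 h 15 of the 17 were higher in FEM, against 6 after quantile normalization and 11 with centred libraries.

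After day 5 the *nspc* genes dropped in FEM. *nspc-4* was at 9.81 and 10.08 at 137 h and at 7.70 and 7.40 at 257 h, a fall of 2.39 on the log2 scale (SE 0.46, adjusted p 0.000235). *nspc-14* went from 10.43 and 10.50 to 8.64 and 8.63 (−1.83, SE 0.69, adjusted p 0.0661). In 16 of the 18 members both libraries at 257 h lay under both at 137 h, as in 21.7% of genes above 0, and *nspc-12* alone went up. By the test 7 of the 17 fell (with *nspd* 9 of 42 members tested, against 10.3% of all genes, or 4 without FEM replicate 1 at 137 h or replicate 2 at 257 h): *nspc-1*, *-3*, *-4*, *-6*, *-7*, *-9* and *-18*, with a median over the 17 of −2.21. The count was 4 without FEM replicate 1 at 137 h, 4 without either FEM library at 257 h, and 16 with only the groups compared in the fit. For 6 members, *nspc-1*, *-3*, *-4*, *-9*, *-17* and *-18*, day 10 was below every earlier FEM library (7.16% of genes above 0). The drop ran through all 3 clusters, whose sums went from 11.05 to 8.77, from 12.05 to 10.08 and from 10.5 to 8.76. Beside it, the summed level of the 11 sperm genes went from 15.54 to 15.13 and that of the 31 major sperm protein genes from 17.52 to 16.69 (means of 2 libraries), and their part in the drop was not tested.

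**Figure D3:**
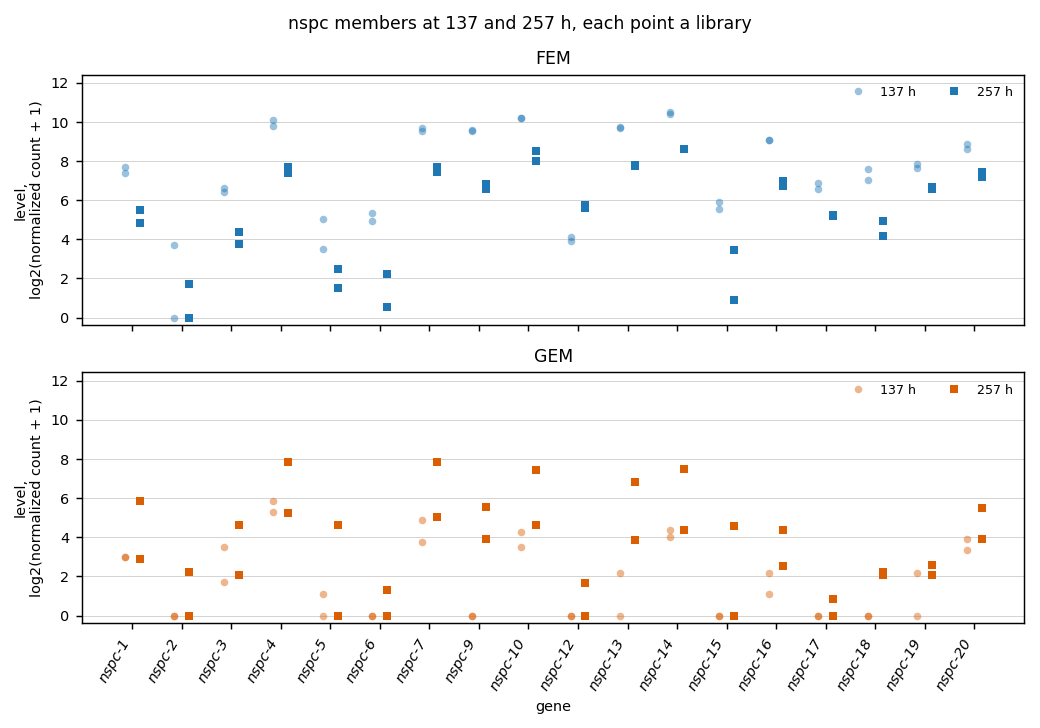
Level of each of the 18 *nspc* genes, log2(normalized count + 1), at 137 h (circles) and 257 h (squares) in FEM (top) and GEM (bottom), with a point for each library. In FEM the squares lie under the circles for 16 genes, and in GEM replicate 1 lies above replicate 2 at 257 h for 17 of the 18, at 7.47 and 4.37 for *nspc-14* and at 2.21 and 2.05 for *nspc-18*.

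In GEM the same genes did not fall. *nspc-4* was at 5.29 and 5.87 at 137 h and at 7.83 and 5.22 at 257 h, where the 2 libraries disagreed. The sum of the family was 10.2 in replicate 1 and 7.46 in replicate 2 at 257 h, and replicate 1 was the higher for 17 of the 18 *nspc* genes but for only 2 of the 9 *nspd* genes. It was also the higher for 6 of the 8 *nspe* genes. In the same 2 libraries depth was 40504933 and 39922497 reads, the sperm sum 10.99 and 10.96 and the major sperm protein sum 11.51 and 11.67. The sum of 6 intestinal genes was 13.48 and 13.98. The part of any of these in the disagreement was not tested. From 137 to 257 h 3 of the 17 rose (4 of 42 members tested, against 3.53% of all genes, beside 1 that fell, against 4.61%): *nspc-9* (4.75, SE 0.57), *nspc-13* (4.25, SE 0.98) and *nspc-18* (2.13, SE 0.58), with adjusted p from 7.23e-07 to 0.0186. Without GEM replicate 1 at 137 h or replicate 1 at 257 h the count was 1, and without replicate 2 at 257 h it was 8. With only the groups compared in the fit none of the 3 was called (limma, adjusted p 0.0555 to 0.165), although 3 of the 17 were under 0.05 before adjustment. *nspc-9* and *nspc-18* were at 0 in both GEM libraries at 137 h, so their fitted changes are no measured ratio.

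The changes from day 5 to day 10 differed between the strains for 7 of the 17 *nspc* genes, all lower in FEM, with a median over the 17 of −4.0 (9 of 42 members tested, against 3.76% of all genes, all lower, against 2.81%). This comparison, too, was added after the values were seen. *nspc-4* gave −3.34 (SE 0.66, adjusted p 0.00257, or 0.0503 with only the groups compared) and *nspc-14* −3.56 (SE 0.98, adjusted p 0.0332). The count was 3 without GEM replicate 1 at 257 h and 12 without replicate 2. At 257 h itself, 10 of the 17 were still higher in FEM, median 2.24, and 6 without GEM replicate 2. *nspc-4* was no longer among them (1.02, SE 0.46, adjusted p 0.0558), its values of 7.70 and 7.40 in FEM lying inside the 5.22 to 7.83 of GEM.

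The *nspb* genes had their highest levels on day 1 in both strains, and FEM went down before GEM. *nspb-12* on chromosome III (5568213 to 5568779), the most abundant, stood in FEM at 9.67, 9.28 and 9.52 at 41 h, at 5.37, 5.31 and 7.04 at 49 h and at 0 in both libraries at 65 h. In GEM it stood at 7.57, 7.59 and 6.97 at 41 h, at 8.28 and 9.38 at 49 h and at 2.99, 4.18 and 7.0 at 65 h. FEM was thus above every GEM library at 41 h and below every one at 49 and 65 h. *nspb-6* on chromosome IV (5895490 to 5895888) did the same, with 8.73, 8.87 and 8.81 at 41 h and 4.70, 5.31 and 6.22 at 49 h in FEM against 6.30, 6.16 and 6.42, then 8.18 and 8.41, in GEM. Of the 12 members, 11 had their highest mean level at 41 h in FEM and 11 at 49 h in GEM.

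**Figure D4:**
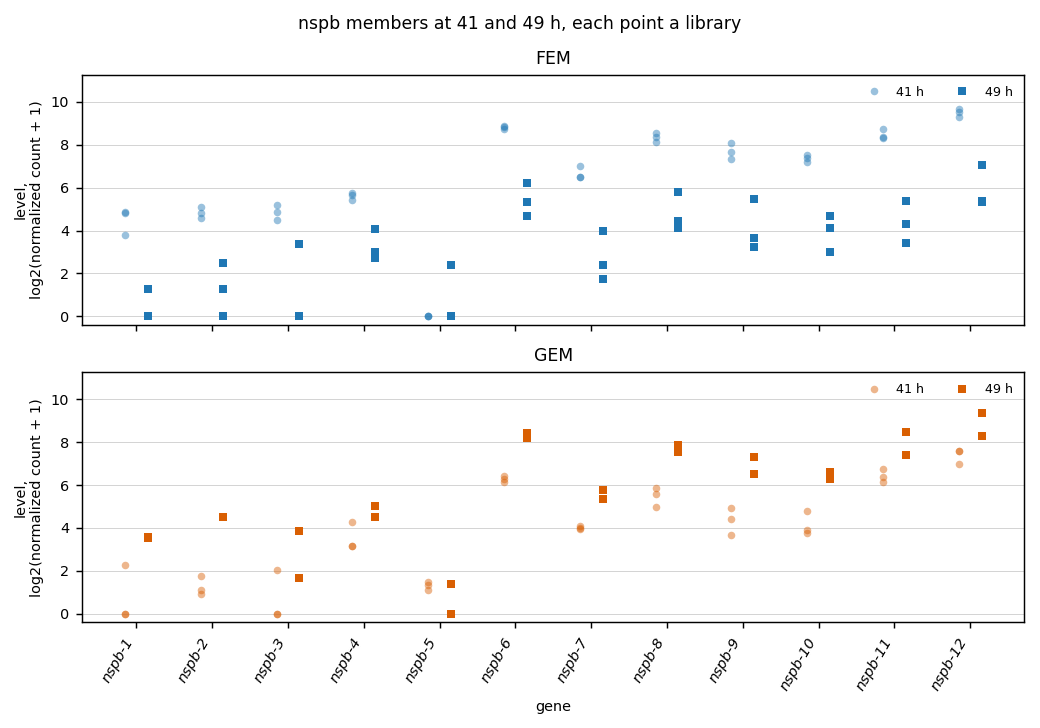
Level of each of the 12 *nspb* genes, log2(normalized count + 1), at 41 h (circles) and 49 h (squares) in FEM (top) and GEM (bottom), with a point for each library. For 11 of the 12 every FEM square lies under every circle, and for 10 of the 12 every GEM square lies above every circle; *nspb-5* is near 0 throughout.

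Counted over the family, 11 of the 12 members were above GEM in every FEM library at 41 h (31.9% of genes above 0), and 10 of the 12 were below at 49 h (17.6%). *nspb-5*, which never exceeded 2.94, was the exception at 41 h. By the test 5 of 7 were higher in FEM at 41 h with a median of 2.51, 4 after quantile normalization and 3 with centred libraries. At 49 h 6 of 7 were lower with a median of −2.89 (6 of 42 members tested, against 14.4% of all genes), but 2 without GEM replicate 2. At 65 h 6 of 7 were lower (against 10.3% of all genes), but 3 without GEM replicate 3, in which the family's sum was 8.68 against 5.82 and 6.05 in replicates 1 and 2. In that library the sperm sum was the lowest of the 3, 8.78 against 10.24 and 9.49, and the part of this in the result was not tested.

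Within FEM the fall from 41 to 49 h took all 7 genes tested (7 of 42 members tested, against 12.6% of all genes), with a median of −3.56. With no filter, 11 of the 12 fell (9.75% of all genes). Every 49 h library lay below every 41 h library for these 11, against 16.1% of genes above 0. FEM replicate 3 at 49 h had the highest level of the 3 for 10 of the 12 members, with a sum of 8.69 against 7.11 and 7.14. Within GEM the direction was the opposite: 10 of the 12 were higher in every library at 49 h (14.0% of genes above 0), although *nspb-10* alone of the 7 passed the test (2.29, SE 0.61, adjusted p 0.00717), and with only the groups compared *nspb-6* alone (2.0, SE 0.19, adjusted p 0.041). The difference between the strains in this step, was called for all 7 (8 of 42 members tested, against 7.42% of all genes), with a median of −5.62 and a range of −6.14 to −3.56. For *nspb-12* it was −5.04 (SE 1.55, adjusted p 0.0206), and the call was lost without GEM replicate 2 at 49 h (−4.49, adjusted p 0.0825). The summed level of 5 epidermal genes went from 15.34 to 17.21 in FEM and from 14.09 to 16.51 in GEM over the same hours, while the mean of their single levels went from 11.22 to 10.08 and from 11.13 to 11.14, so the genes of the list did not move together. Their part in the result was not tested.

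After day 1 the family stayed low. The sum in FEM was 2.07 ± 1.26 at 65 h (SD, n = 2) and 4.21 ± 1.21 at 257 h (n = 2), levels at which few reads were counted. In GEM it declined from 10.6 ± 0.47 at 49 h to 5.33 ± 0.51 at 89 h (n = 3), 3.7 ± 0.72 at 137 h and 1.91 ± 0.86 at 257 h (n = 2 each for the others). At day 10 all 7 genes tested were below day 1 in FEM (8 of 42 members tested, against 22.2% of all genes), median −4.71, and in GEM (10 of 42, against 21.7%), median −6.59, or −5.09 with genes at 0 in 1 group put at their bound. Some of the 7, such as *nspb-4* and *nspb-9* with mean deposited values of 1.11 and 1.28, passed the filter only through day 1. For these a lower level at day 10 was close to fixed, so the shares of all genes are no like comparison.

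*nspb-10* on chromosome II (14587879 to 14588262) had the highest mean level of the family in GEM from 65 to 117 h. From 65 to 117 h it was at 3.62 to 6.36 in the GEM libraries, while FEM was at 2.34 in 1 library at 65 h, at 1.70 in 1 library at 97 h and at 0 in the other libraries of those ages. At 73 h the GEM values were 6.36, 5.45 and 5.50 and the FEM values 0 in all 3. The gene was lower in FEM over the 9 ages (−2.57, SE 0.20, limma adjusted p 3.68e-13), although at 41 h it had been the higher, at 7.52, 7.37 and 7.21 against 3.77, 3.90 and 4.79. In GEM it was at 2.77 and 2.16 at 137 h and at 0 in both libraries at 257 h, below every earlier GEM library (4.8% of genes above 0). *nspb-12* was the other gene lower in FEM over the 9 ages (−1.22, SE 0.38, adjusted p 0.00588). *nspb-6* (−0.27, SE 0.33, adjusted p 0.462) and *nspb-4* (−0.06, SE 0.27, adjusted p 0.86) were not called, their opposite differences at 41 and 49 h entering 1 mean.

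Of the *nspe* genes, in 1 cluster on chromosome II, 3 were tested and none was called between the strains over the 9 ages (limma), nor was any p under 0.05 before adjustment. *nspe-1* (12620649 to 12620864) took 68.01% of the family's counts in FEM and held 4.89, 7.08 and 7.99 there and 3.39, 7.10 and 8.58 in GEM (lowest, median and highest). Its difference was 0.42 (SE 0.21, limma adjusted p 0.0737), but −0.33 after quantile normalization and −0.19 with centred libraries. *nspe-2* (12619173 to 12619388) gave −0.20 (SE 0.22, adjusted p 0.442), with 0, 5.19 and 6.29 in FEM and 0, 5.84 and 6.62 in GEM, and it was lower in FEM after quantile normalization (−0.97, adjusted p 0.000292) and with centred libraries (−0.81, adjusted p 0.00181). *nspe-4* gave 0.29 (SE 0.15, adjusted p 0.0873), and −0.38 (adjusted p 0.0271) and −0.33 (adjusted p 0.0403) in the other scalings. Calls and, for *nspe-1* and *nspe-4*, directions thus depended on the scaling.

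Within the strains, the early rise was clearer in GEM. *nspe-1* was at 4.66, 3.52 and 4.26 at 41 h and at 8.15 and 7.47 at 49 h in GEM (3.67, SE 0.63, adjusted p 7.02e-05). In FEM it was at 7.34, 4.89 and 6.48 and then at 7.62, 6.81 and 7.57, groups that overlapped (1.1, SE 0.56, adjusted p 0.134). *nspe-2* rose in both strains, from 3.10, 0 and 1.37 to 4.53, 4.03 and 3.90 in FEM (2.66, SE 0.60, adjusted p 0.000654) and from 1.89, 0 and 0 to 5.35 and 3.27 in GEM (3.68, SE 0.67, adjusted p 0.000168). With only the groups compared, both GEM calls were lost (adjusted p 0.0739 and 0.177). For *nspe-1* the changes differed by −2.57 (SE 0.84, adjusted p 0.0304), a call that was lost without any of FEM replicates 1 or 3 at 41 h, FEM replicate 2 at 49 h, GEM replicate 2 at 41 h or GEM replicate 1 at 49 h (−2.02 to −2.45).

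**Figure D5:**
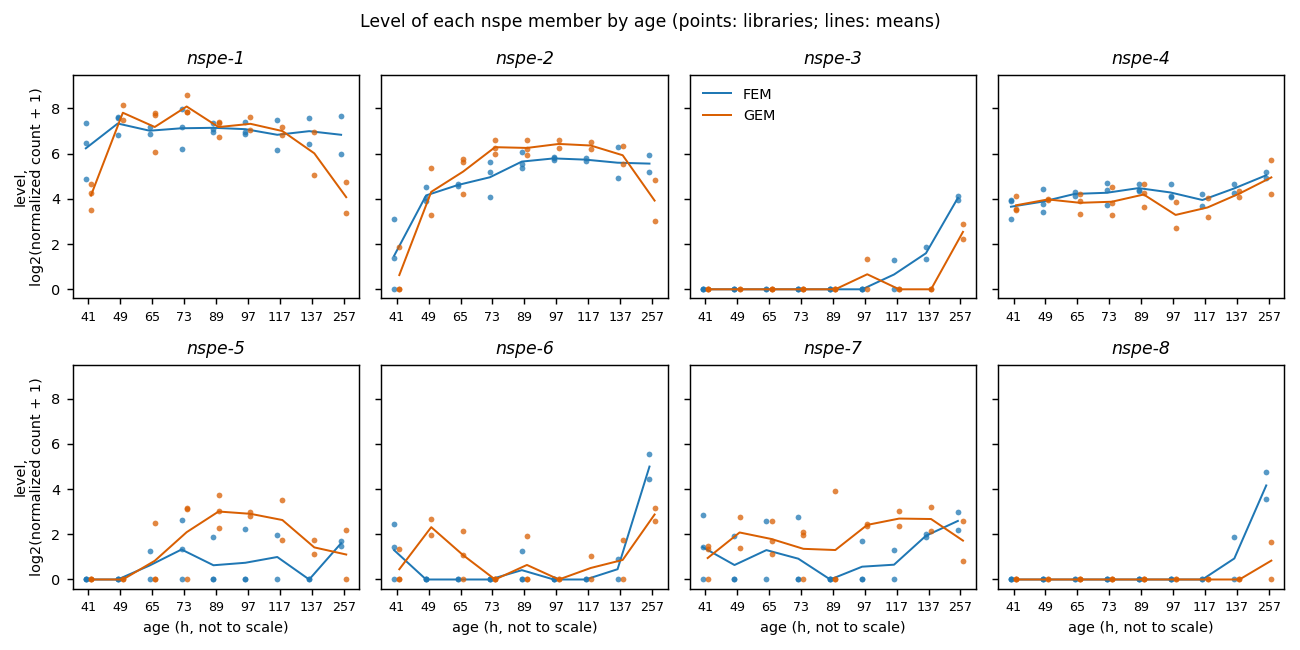
Level of each of the 8 *nspe* genes, log2(normalized count + 1), by age in hours (spaced evenly, not to scale), with a point for each library and lines through the means of FEM (blue) and GEM (orange). *nspe-1* and *nspe-2* come up at 49 h and go down in GEM at 257 h, and *nspe-3*, *nspe-6* and *nspe-8* leave 0 mainly at 257 h in FEM.

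At day 10 the members went different ways. From day 1 to day 10 *nspe-2* rose in FEM (2.74, SE 0.60, adjusted p 0.000302) and in GEM (1.45, SE 0.62, adjusted p 0.0345), and so did *nspe-4*, by 1.27 (SE 0.40) and by 1.1 (SE 0.41). At 41, 49 and 257 h the GEM means were 0.63, 4.31 and 3.92 for *nspe-2* and 4.15, 7.81 and 4.08 for *nspe-1*. In GEM 55.1% of all genes rose and the median of all genes was 1.03, and both GEM rises lost their call after quantile normalization (0.44 and 0.24), with centred libraries (0.78 and 0.43) and with only the groups compared. In FEM the median of all genes was 0.26. *nspe-1* fell in GEM (−1.9, SE 0.58, adjusted p 0.0037) and was at 0.05 (SE 0.56, adjusted p 0.953) in FEM. Without GEM replicate 1 at 257 h, 1 of the 3 GEM calls was left. *nspe-1* and *nspe-2* were lower in both GEM libraries at 257 h than at 137 h, *nspe-1* at 4.76 and 3.39 after 5.06 and 6.97, and neither passed the test (adjusted p 0.0809 and 0.0952). At 257 h *nspe-1* was higher in FEM, 5.99 and 7.68 (2.76, SE 0.69, adjusted p 0.000806). In FEM 6 of the 8 members were higher in both libraries at 257 h than at 137 h (25.2% of genes above 0), and 4, *nspe-3*, *nspe-4*, *nspe-6* and *nspe-8*, were above every earlier FEM library (9.33%). Of these, 3 lay under the filter and were picked out after their values were seen. *nspe-3* was at 0 in every FEM library up to 97 h, at 1.31 and 0 at 117 h, 1.86 and 1.33 at 137 h, and 4.13 and 3.95 at 257 h. *nspe-6* was at 0.91 and 0 at 137 h and at 5.55 and 4.44 at 257 h, and *nspe-8* at 1.86 and 0 and then at 4.76 and 3.56. With no filter their fitted changes from day 5 to day 10 in FEM were 2.45, 4.54 and 3.23. No p-value is given for them, because a test would use the values that chose the genes. In GEM *nspe-3* came up as well, from 0 in both libraries to 2.21 and 2.87, above every earlier GEM library (14.9% of genes above 0), and *nspe-6* was at 2.60 and 3.15. The 3 genes lie at 12615828 to 12621958, the stretch that also holds *nspe-1* and *nspe-2*.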

How the data were processed

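The authors trimmed the reads with Trim Galore (0.4.4), mapped them with HISAT2 (2.1.0) to WBcel235 as non-directional single-end reads, counted reads per gene in SeqMonk with isoforms merged, and normalized with DESeq2. Read length and the treatment of reads that map to several copies are not given in the sources used here. The deposited values are the natural log (ln) of normalized count + 1, with 2 decimals. The base was read from the values: undone as ln, 100% of low values in a library were whole multiples of 1 read (tolerance 0.1), against at most 63.89% as log2. As the design assumed a log2 scale, each value was divided by ln 2. All 45 columns matched a sample, and 0 columns were left without one.

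Groups of strain and age were compared with limma (3.58.1, R 4.3.3), which fits a mean for each of the 18 groups with a variance trend and a shared spread, since the values are no counts. P-values were adjusted by the method of Benjamini and Hochberg over the 16925 genes whose deposited values averaged 1 or more; the threshold was 0.05, and the pseudocount 1. The fit was tested on simulated data. Differences of a low gene on this scale understate its change. A gene at 0 throughout a group was also put at a bound of 3 reads, at the mean worth of 1 read in that group. Depth was estimated from the step that 1 read makes. Alternatives were no filter, a filter of at least 3, quantile normalization, libraries centred on the median, a pseudocount of 8, no trend, only the groups compared, day 1 as 49 h, and each library left out. Differences between the strains in the steps from 41 to 49 h and from day 5 to day 10 were added after the data were seen.

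The members and lists were chosen with earlier results of these data known. The genes named are, in each family, the 3 with the highest mean level, the lowest one tested, and any called against its family; others are named where a count is small. The pattern for further *nsp* families matched 0 genes. Gene positions are from RefSeq, where 56 of 56 names matched, and exons from Ensembl release 115. Tables were made with Python (3.11.15), numpy (2.4.6), pandas (2.3.3) and matplotlib (3.10.9).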

Additional observations from a re-analysis of the deposited data

Results flagged for a closer look

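For the member of each family with the highest mean level, the change between ages differed between FEM and GEM by a test of the difference itself (limma, adjusted over 16925 genes) in 7 cases. From 41 to 49 h these were *nspb-12* (−5.04, SE 1.55, adjusted p 0.0206), which went down in FEM and was higher in both GEM libraries, and *nspe-1* (−2.57, SE 0.84, adjusted p 0.0304), which rose in GEM. From day 1 to day 10 they were *nspd-1* (−3.53, SE 0.54, adjusted p 8.22e-07), *nspa-8* (−1.92, SE 0.65, adjusted p 0.0108), *nspc-4* (−1.36, SE 0.54, adjusted p 0.0302) and *nspe-1* (1.95, SE 0.81, adjusted p 0.0363), where the median of all genes was −0.84. From day 5 to day 10 it was *nspc-4* (−3.34, SE 0.66, adjusted p 0.00257). The comparisons from day 1 and from day 5 share the libraries at 257 h, and those from day 1 share the libraries at 41 and 49 h with the first pair.

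The *nspc-4* value from day 1 rested on 1 library: without GEM replicate 1 at 257 h it was −0.06 (adjusted p 0.928), and it also lost its call without FEM replicate 2 at 257 h (−1.21) or GEM replicate 1 at 49 h (−1.25). *nspe-1* from day 1 lost its call in 6 of the fits without a library, at 1.1 to 1.82.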

How the results depend on the processing

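No paired analysis was possible because the labels give every library a serial number of its own and none that groups share. Some of these numbers are neighbours between the strains at 1 age, but nothing in the labels says what neighbours have in common.

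Counts of members called moved by over 1.5 times in these cases. With only the groups compared in the fit, 1 member was called in GEM from 41 to 49 h, 26 in FEM from day 1 to day 10, 20 in FEM and 0 in GEM (14 of the 42 under 0.05 before adjustment, limma) from day 5 to day 10, and 17 for the difference between the strains in the last step. A pseudocount of 8 gave 22 in FEM from day 1 to day 10, 18 in FEM and 8 in GEM from day 5 to day 10, and 20 for their difference. The filter of at least 3, which leaves no *nspb* gene, gave 14 in FEM and 8 for the difference from 41 to 49 h, and 5 in FEM and 17 in GEM from day 1 to day 10. No filter gave 21 in FEM from day 1 to day 10 and quantile normalization 20. Some of these fits hold other genes or fewer libraries than the main one, and the causes of the moves were not tested.

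For single genes over the 9 ages, *nspb-4* turned to 0.02 with a pseudocount of 8 and to between 0.01 and 0.05 without single libraries (range over all −0.16 to 0.05), and *nspe-1* to −0.33 and −0.19 and *nspe-4* to −0.38 and −0.33 in the 2 other scalings.

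With 1 library left out, the members called were 34 to 36 over the 9 ages, 32 to 33 at 41 h, 27 to 35 at 49 h, 33 to 36 at 65 h, 32 to 34 at 73 h, 30 to 32 at 89 h, 32 to 33 at 97 h, 29 to 31 at 117 h, 31 to 33 at 137 h and 20 to 30 at 257 h. From 41 to 49 h they were 22 to 25 in FEM, 5 to 11 in GEM and 12 to 18 for the difference. From day 1 to day 10 they were 11 to 15, 24 to 29 and 11 to 20, and from day 5 to day 10, 4 to 7, 2 to 8 and 5 to 13. Where 1 library was left in a group, it was taken to vary like the other groups.

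The split of all genes called moved with the scaling. From 41 to 49 h in FEM 64.8% of calls were higher, against 49.2% after quantile normalization and 47.9% with centred libraries; for the difference 59.7%, 47.5% and 36.8%; from day 1 to day 10 in GEM 71.7%, 50.9% and 58.3%. Depth limits the low members most: at 12839734 reads, 1 read was a larger step than at 43350627.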
